A study of Mus musculus with 2 samples.

Results

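The imprinted Sfmbt2 intron microRNA cluster was described in small RNA libraries from mouse heart. Its members were taken by position alone: every microRNA gene of the GENCODE M21 annotation (build mm10) that lies fully inside Sfmbt2 on chromosome 2 and on the same strand. This gave 119 of the 2202 microRNA genes counted, 5.40% of them. Both libraries were made from heart tissue of female mice of strain 5xFAD/CAST, adults aged 8 to 10 months, and they are numbered as biological replicates 1 and 2. 5xFAD is a transgenic line that carries mutant human genes of familial Alzheimer disease under a neuronal promoter, and CAST stands for a wild-derived inbred strain. The labels do not say which animals carried the transgene, both libraries bear the same donor identifier under separate biosamples, and there is no control group. The design therefore holds 1 group of 2 libraries, whose spread can be technical. The tables give reads per microRNA gene, so the arms of a hairpin and the alleles of the parents were not separated.

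MicroRNAs are short RNAs cut from hairpin precursors, and the seed near their 5′ end pairs with target messenger RNAs. Sfmbt2 encodes a Polycomb-group protein with malignant brain tumor domains. In mice it is expressed from the paternal copy in early embryos and extraembryonic tissue, and a large intron of the gene carries a rodent-specific array of microRNA genes that is known chiefly from placenta and embryonic stem cells. The array consists of repeated units, so many of its genes are near copies of each other. Its families are Mir297, Mir466, Mir467 and Mir669, and a few relatives of these families lie on other chromosomes.

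The sequences below show what these families look like. They are the mature sequences that RefSeq (GRCm38.p6) gives for relatives outside Sfmbt2, 5′ to 3′, with the seed (bases 2 to 8) in capitals. All 8 hold runs of alternating U and G or A and C, and no pair shares a seed.
miR-466i-3p: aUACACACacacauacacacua
miR-466j: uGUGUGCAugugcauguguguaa
miR-466k: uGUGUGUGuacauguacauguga
miR-466q: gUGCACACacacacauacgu
miR-467f: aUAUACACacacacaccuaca
miR-467g: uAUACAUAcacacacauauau
miR-467h: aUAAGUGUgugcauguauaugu
miR-669n: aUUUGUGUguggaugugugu

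None of these 8 whole sequences occurred in a member's gene, but each of the 8 seeds occurred in at least 1 member. The letters of the miR-466i-3p seed, UACACAC, were present on the gene's strand in 60 of the 119 members (50.4%) and in 180 of all 2202 microRNA genes (8.17%). They were present in all 8 members that had counts in both libraries. The miR-467g seed, AUACAUA, was present in 78 members (65.5%) against 6.49% of all microRNA genes, and the miR-466j seed, GUGUGCA, in 62 members (52.1%) against 4.81%. The miR-467h seed, UAAGUGU, was present in 1 member, Mir467e, and in 14 microRNA genes in all. A match of these letters in a gene does not say that the member makes a microRNA with that seed.

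All 119 members lay in 1 intron of Sfmbt2, intron 10 or 11 by transcript, at chr2:10461473-10523944 on the plus strand, and none overlapped an exon or a gene of the other strand. They spanned 53.0 kb of it. Their genes were 73 to 127 bases long with a median GC content of 37.3%, against 50.8% over all microRNA genes. The motif GTGTGT, searched on both strands, was found in 116 of the 119 (97.5%) and in 17.4% of all microRNA genes, whose lengths run from 39 to 442 bases. It overlaps the UACACAC seed, since its reverse complement is part of that seed. By symbol, 23 members were Mir466 genes, 14 Mir467, 29 Mir669 and 5 Mir297, and 48 had no Mir symbol. Counting Gm25022, whose sequence is identical to 6 Mir467a genes, the Mir467 genes recurred at a median distance of 2.45 kb, and 13 of the 14 distances lay between 2.3 and 2.6 kb.

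Copies were frequent within the array. Of the 119 members, 47 (39.5%) had exactly the same gene sequence as another microRNA gene. The largest identical sets were 9 Mir669a genes (Mir669a-4 to Mir669a-12) and 7 genes made up of 6 Mir467a genes and Gm25022. A window of 22 bases, about a mature microRNA, was called unshared if it occurred at 1 genomic place among all annotated microRNA genes on either strand. No unshared window was found in 54 members (45.4%), against 243 of the other 2083 microRNA genes (11.7%). The median member had 21.2% of its windows unshared, and the median microRNA gene 100%. The tables set reads with several alignments aside from every gene, and these made up 42.4% (replicate 1) and 43.2% (replicate 2) of the reads. Counts of a member thus come from reads with a single alignment, and a 0 does not bound the level of a microRNA that has identical copies.

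MicroRNA genes received 4186560 reads in replicate 1 and 2877511 in replicate 2. Levels are counts per 1000000 of these reads (CPM), per gene and not per base. A count of 0 allows up to 3 counts, 0.717 and 1.04 CPM, and intervals and limits cover counting error only, since the reads carry no molecular identifiers. All 7 listed heart muscle genes reached 1 CPM in both libraries, at very different levels: Mir499, of the cardiac myosin gene Myh7b, stood at 4787 and 3618 CPM, and Mir208a, of Myh6, at 1638 and 1074 CPM. Mir208b had 41.8 and 22.2 CPM and Mir1a-2 72.6 and 67.4 CPM, while Mir1a-1, Mir133a-1 and Mir133a-2 had 1.04 to 3.13 CPM. The Mir1a and Mir133a genes share windows with other microRNA genes. Unshared were 49 of 56 windows in Mir1a-1, 44 of 51 in Mir1a-2, 34 of 47 in Mir133a-1 and 70 of 83 in Mir133a-2. Reads with several alignments are left out, so the counts set no upper limit on the microRNAs of these genes.

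Among reads with a single alignment, 6 genes carried nearly all counts of the array. Its part of the reads with several alignments is not known from these counts. The 119 members together had 3291 counts in replicate 1 and 2844 in replicate 2, or 0.0786% (exact Clopper-Pearson 95% interval 0.0759 to 0.0813) and 0.0988% (0.0952 to 0.103) of the microRNA reads. The mean was 0.0887% ± 0.0143 (SD, n = 2). In whole tissue, fewer cells that express the array and less RNA per cell cannot be told apart. At least 1 CPM in both libraries was reached by 6 members (5.04%), against 17.3% of all microRNA genes, and 13 members had a count in either library, against 32.2% of all genes. The 6 detected members were Mir467d, Mir467e, Mir669c, Mir669o, Mir467c and Mir669l, and they held 99.7% and 98.4% of the array's counts. The remainder came from 7 further members, and 106 members had 0 counts in both libraries.

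Mir467d was the leading gene of the array. It lies at chr2:10507630-10507714 and had 2226 counts in replicate 1 and 1695 in replicate 2, which is 532 and 589 CPM (560 ± 40.6; SD, n = 2) and rank 76 of all microRNA genes. It alone gave 67.6% (exact 95% interval 66.0 to 69.2) and 59.6% (57.8 to 61.4) of the array's counts. Of its 64 windows, 25 were unshared, and the longest run it shared with another microRNA gene was 60 of its 85 bases.

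Mir467e followed at 98.2 and 124 CPM (411 and 357 counts). It sits 1.9 kb before Mir467d, and the levels of the pair differed 5.42-fold and 4.75-fold. Mir669c, at chr2:10509296-10509404, stood at 65.9 and 118 CPM (276 and 340 counts), and Mir669o at 47.8 and 89.7 CPM (200 and 258 counts). Mir467c, near the other end of the array, stood at 35.6 and 32.7 CPM (149 and 94 counts). Mir669l had 20 and 54 counts, 4.78 and 18.8 CPM. Mir669e, also at the start of the array, had 3 and 43 counts, 0.717 and 14.9 CPM, so it missed the detection threshold in replicate 1 alone.

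The order of these 7 genes was the same in both libraries, but not every step was larger than the spread. The ranges of the libraries were separate between Mir467d and Mir467e, between Mir669o and Mir467c, and between Mir467c and Mir669l. In replicate 1 alone, the exact 95% intervals of Mir669o (41.4 to 54.9 CPM) and Mir467c (30.1 to 41.8 CPM) still touched. The ranges overlapped between Mir467e and Mir669c, Mir669c and Mir669o, and Mir669l and Mir669e. In replicate 2, the exact 95% intervals of Mir467e (112 to 138 CPM) and Mir669c (106 to 131 CPM) overlapped too. So did those of Mir669l (14.1 to 24.5 CPM) and Mir669e (10.8 to 20.1 CPM) in that replicate.

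**Figure D1:**
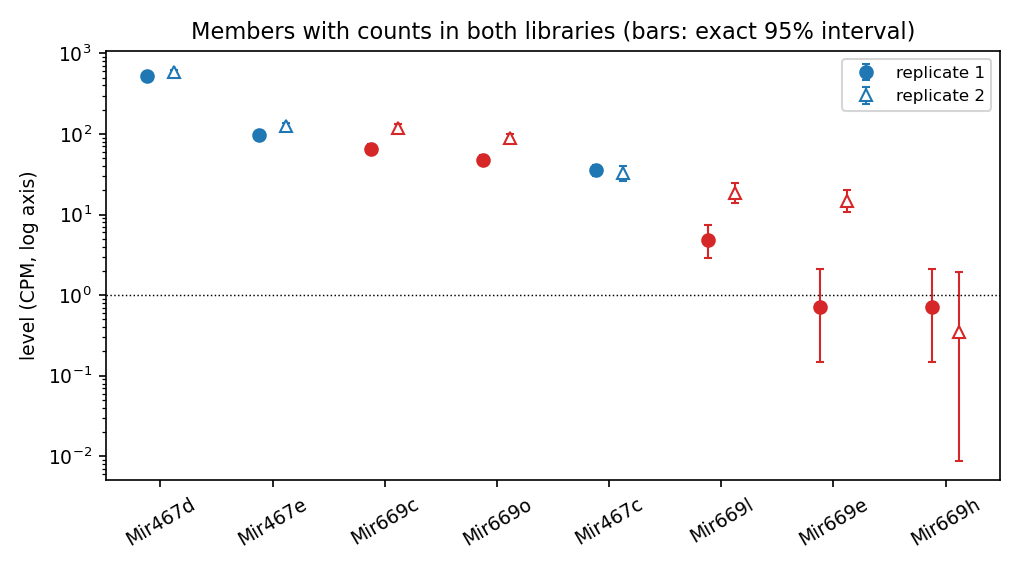
Level in CPM (log axis) of the 8 members with counts in both libraries, with replicate 1 as filled circles, replicate 2 as open triangles and bars for the exact 95% interval of counting error; Mir467 genes are blue, Mir669 genes red, and the dotted line marks 1 CPM. Mir467d stands above all others in both libraries, and the red Mir669 genes except Mir669h are higher in replicate 2.

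The remaining members with reads were near the counting limit. Mir669h, the last gene of the array, had 3 counts and 1 count, and the leading Mir466 gene, Mir466h, had 0 and 1. Gm25263, the leading gene without a Mir symbol, also had 0 and 1. Gm23651, Mir466d and Mir466n, named after their values were seen, had 1 count each in replicate 1 and none in replicate 2.

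By family, nearly all counts came from Mir467 and Mir669 genes. The families of the array's reads with several alignments are not known. The 14 Mir467 genes held 84.7% and 75.5% of the array's counts, all of it from Mir467d, Mir467e and Mir467c. Of the other 11 Mir467 genes, 10 had no unshared window and all 11 had 0 counts. The 29 Mir669 genes held 15.3% and 24.5%, from Mir669c, Mir669o, Mir669l, Mir669e and Mir669h, and 13 of the 29 had no unshared window. The 23 Mir466 genes had 2 counts and 1 count in all, and 14 of them had unshared windows. The 5 Mir297 genes had none. All 5 had unshared windows, with a median of 29.9% of their windows. An unshared window can lie anywhere in the gene, also outside the mature sequence, so these 0 counts do not bound the level of the microRNA. The 48 genes without a Mir symbol had 1 count in each library, and 26 of them had unshared windows.

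Counts were found only in members with unshared sequence, which the counting rule largely sets in advance, since reads with several alignments are left out. None of the 54 members without an unshared window had a count, and all 13 members with a count were among the other 65. An unshared window somewhere in the gene did not by itself go with counts. Of those 65 members, 52 had 0 counts in both libraries, and 19 of the 52 had at least 50% of their windows unshared. Whether the mature sequences of these members are unshared, or their windows occur elsewhere in the genome, was not tested. From the highest to the lowest of the 7 leading genes, the share of unshared windows was 39.1% in Mir467d, 59.1% in Mir467e, 83.0% in Mir669c, 58.7% in Mir669o, 63.2% in Mir467c, 53.2% in Mir669l and 96.9% in Mir669e. The order of the levels was thus not the order of these shares.

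**Figure D2:**
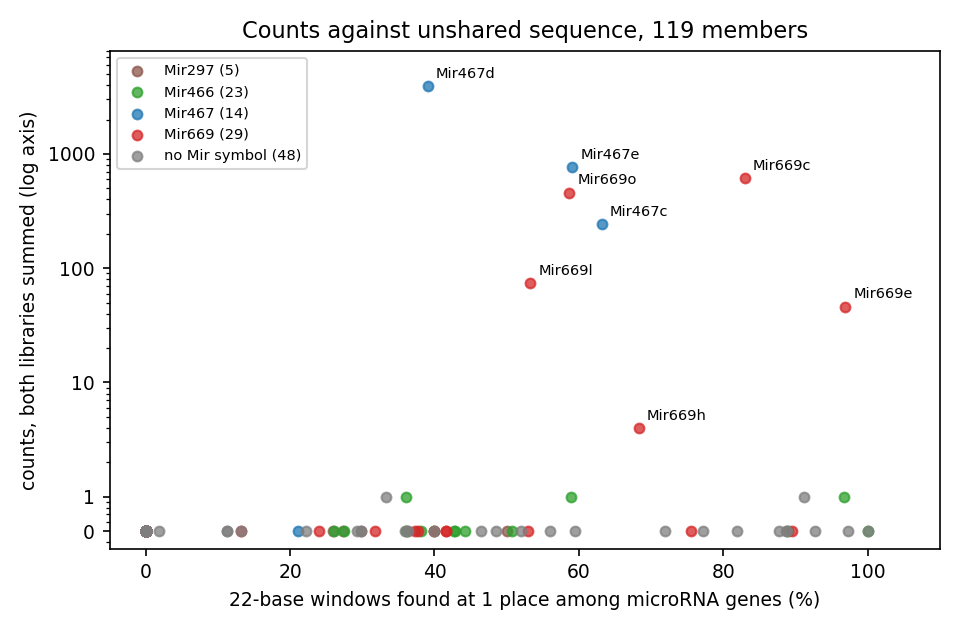
Counts of each of the 119 members, both libraries summed (log axis, 0 drawn at its own tick), against the share of its 22-base windows that occur at 1 place among annotated microRNA genes; colours give the family by symbol. All 54 members at 0% on the horizontal axis have 0 counts, and Mir467d has the most counts with 39.1% of windows unshared. Reads with several alignments are not counted.

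Along the intron the counts lay at both ends of the array, most of them at the end that holds Mir467d. The 17 members from the first, Gm22072, to Mir467c had 172 and 191 counts, and each of them had unshared windows. The 30 members from Mir467e to the last, Mir669h, had 3118 and 2653 counts, and 28 of them had unshared windows. Between Mir467c and Mir467e, 72 members over 30.6 kb had 1 count in replicate 1 and none in replicate 2. In this middle stretch, 52 of the 72 members (72.2%) had no unshared window and 46 had an identical copy. These 3 stretches were drawn after the values were seen and are a description.

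**Figure D3:**
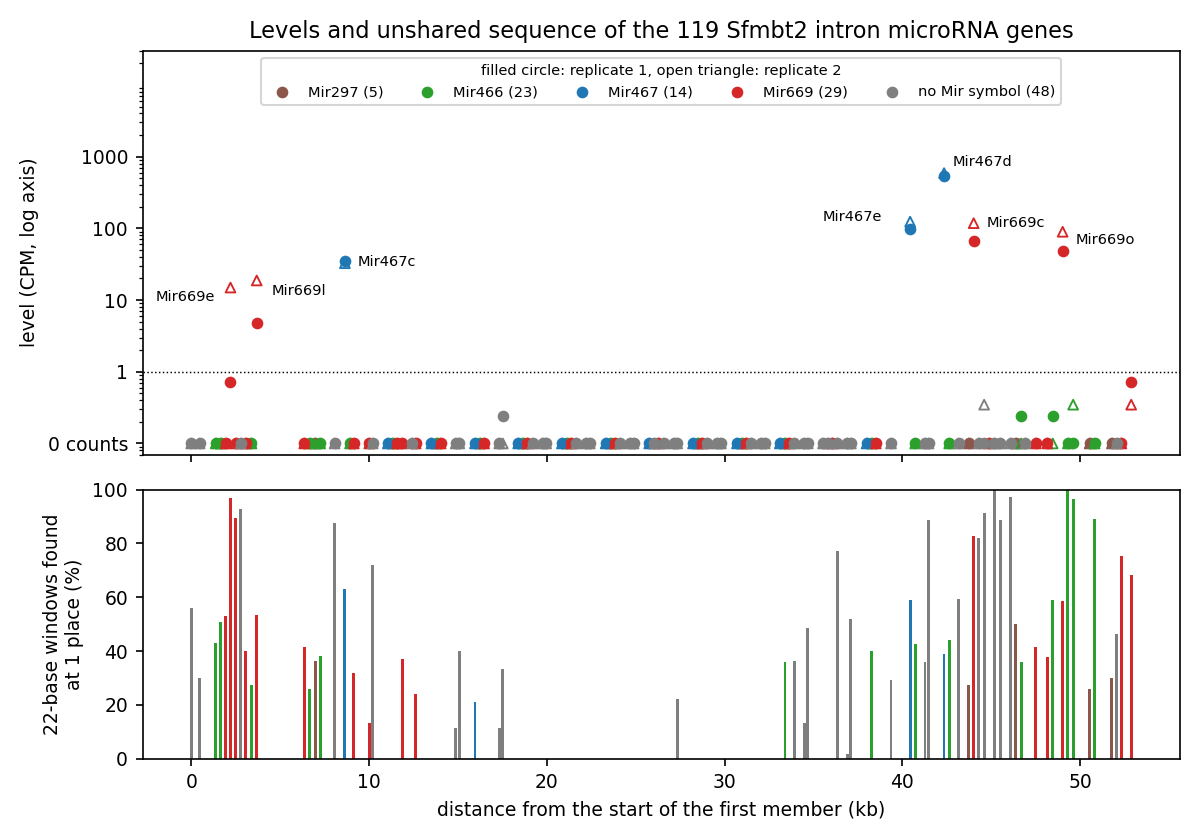
Top, level in CPM (log axis, 0 counts at the lowest tick, dotted line at 1 CPM) of each of the 119 members by distance from the first member's start in kb, with replicate 1 as filled circles and replicate 2 as open triangles, coloured by family. Bottom, share of each member's 22-base windows found at 1 place among microRNA genes; the middle stretch, where nearly all members have 0 counts, holds 52 of the 54 members with no such window.

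Nearly every counted read at the members lay on the strand of Sfmbt2. On the opposite strand, replicate 1 had 1 read among 3292 (0.0304%, exact 95% interval 0.000769 to 0.169), at Mir669b, and replicate 2 had 0 of 2844 (exact 95% interval 0 to 0.130%), where 3 counts would be 0.105%.

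The detected Mir669 genes were higher in replicate 2, and the Mir467 genes moved less. The libraries were compared, gene by gene where counts sufficed, by an exact two-sided binomial test on TMM-scaled totals (edgeR), with Benjamini-Hochberg adjustment over the 309 genes that passed the filter. Such a test compares these 2 libraries beyond counting error and not conditions. Of the 119 members, 6 passed the filter. Among them 5 were higher in replicate 2 and none was lower, where 35.3% of all tested genes were higher and 28.2% lower, 63.4% together. The median log2 ratio of the 6 was 0.66, and that of all tested genes 0.01.

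Mir669l, with 4.78 and 18.8 CPM, differed most of the 6, by a log2 ratio (replicate 2 over replicate 1) of 2.05 (exact 95% interval 1.28 to 2.86, adjusted p = 1.76e-08, exact binomial test). Mir669o was 1.97-fold higher (log2 ratio 0.98, 0.71 to 1.25, adjusted p = 1.36e-12) and Mir669c 1.88-fold (0.91, 0.68 to 1.15, adjusted p = 1.74e-14). Mir467e differed by less, with a log2 ratio of 0.41 (0.20 to 0.62, adjusted p = 0.000216). Mir467d had a log2 ratio of 0.22 (0.13 to 0.31, adjusted p = 6.32e-06), and Mir467c did not pass, with -0.05 (-0.44 to 0.33, adjusted p = 0.906). The intervals of Mir669c, Mir669o and Mir669l lay above those of all 3 Mir467 genes, and the difference between the families was not tested.

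Mir669e, with 3 and 43 counts, was below the filter and had a log2 ratio of 4.45 (exact 95% interval 2.81 to 6.79). No p is given for Mir669e, since nearly all of its counts come from replicate 2. Mir669e and Mir669l, the members with the largest ratios among those with counts in both libraries, both lie at the start of the array.

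**Figure D4:**
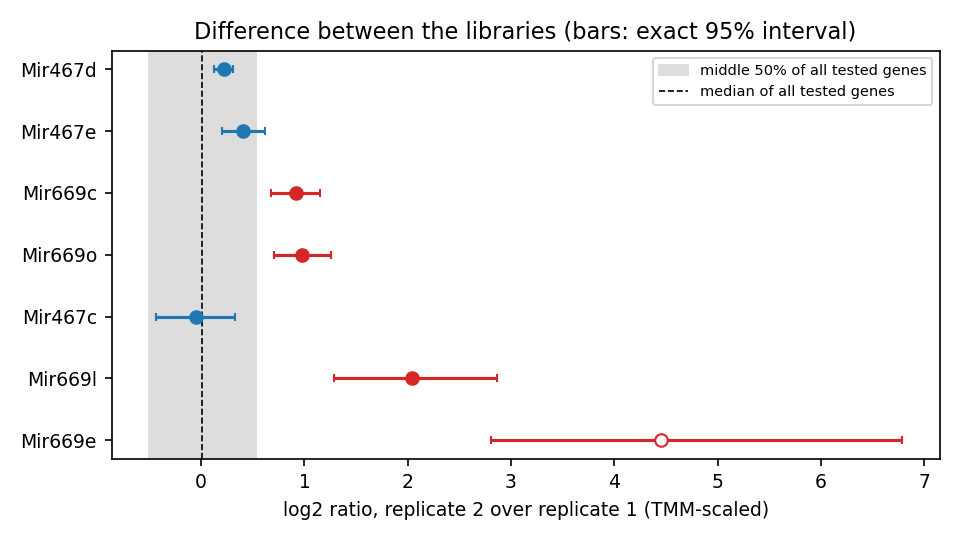
Log2 ratio of replicate 2 over replicate 1, TMM-scaled, for the 6 tested members (filled) and Mir669e (open, below the filter), with bars for the exact 95% interval; the grey band and the dashed line give the middle 50% and the median (0.01) of all 309 tested genes. The Mir669 points lie to the right of the Mir467 points.

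The scaling decided the smallest of these calls. With DESeq2 size factors the median of all tested genes moved by -0.15 on the log2 scale, and the split of calls over all tested genes changed from 109 higher and 87 lower to 83 higher and 103 lower. Mir467d then had a log2 ratio of 0.07 and did not pass (adjusted p = 0.185, exact binomial test), whereas Mir467e, Mir669c, Mir669o and Mir669l still passed, with 0.26, 0.77, 0.83 and 1.90. The array's summed counts had a log2 ratio of 0.40 with TMM (0.33 to 0.47), 0.25 with DESeq2 size factors and 0.33 with plain totals. Without Mir467d it was 0.72 (0.60 to 0.84).

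Within the array, a make-up that needs no scaling between libraries, Mir669 genes took a larger part of the counts in replicate 2. Of the counts of Mir467 and Mir669 genes, 15.3% (exact 95% interval 14.1 to 16.5) were from Mir669 genes in replicate 1 and 24.5% (22.9 to 26.1) in replicate 2. The part of Mir669c in the array's counts was 8.39% in replicate 1 and 12.0% in replicate 2, and that of Mir669o 6.08% and 9.07%. Mir467e had 12.5% and 12.6%.

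**Figure D5:**
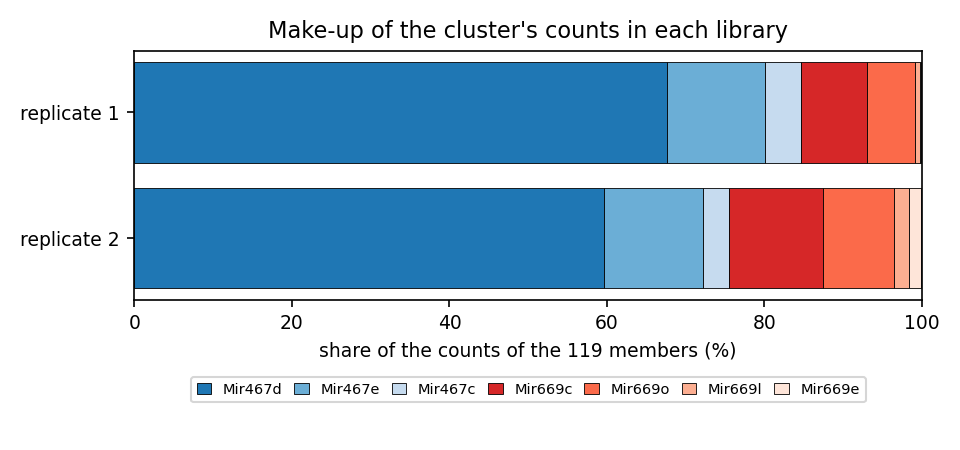
Share of the array's counts (%) that came from each of the 7 leading members in each library, with Mir467 genes in blue shades and Mir669 genes in red shades. Mir467d takes 67.6% in replicate 1 and 59.6% in replicate 2, and the red part is wider in replicate 2.

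Among microRNAs of pluripotent cells, the Mir302 genes had more counts in replicate 2 and the others few or none. Of the 10 listed genes of pluripotent cells and early embryos that matched, 6 had a count, and their summed level was 11.0 CPM in replicate 1 and 425 CPM in replicate 2. Mir302a had 10 and 482 counts, Mir302b 6 and 394, Mir302d 24 and 270, and Mir302c 2 and 77. Mir302d alone passed the filter and was higher in replicate 2 (log2 ratio 4.10, adjusted p = 6.23e-79, exact binomial test). Mir367, of the same locus, and Mir290a, Mir294 and Mir295 were at 0 in both libraries, while Mir293 had 3 counts and Mir291a 1 in replicate 1 and none in replicate 2. Marker lists of other cell types also differed between the libraries, and in 3 of them the members moved in opposite directions. The 3 endothelial genes summed to 17.6% of the counts in replicate 1 and 5.00% in replicate 2, of which Mir126a made up 98.1%. Mir126a was lower in replicate 2 (log2 ratio -1.83), and Mir221 (0.89) and Mir222 (0.73) were higher. The 5 fibroblast genes summed to 0.531% and 0.373%, with Mir214 lower (-1.59) and Mir21a higher (0.39) in replicate 2. The 3 erythroid genes summed to 0.175% and 0.133%, with Mir451a (-1.54) and Mir144 (-1.88) lower and Mir486 higher (0.22). All 5 leukocyte genes were higher in replicate 2, with sums of 0.600% and 0.835%, and both smooth muscle genes were higher, with 3.29% and 5.63%. The 7 cardiomyocyte genes summed to 0.654% and 0.479%, with 3 of 4 tested genes lower. The 2 skeletal muscle genes summed to 0.00236% and 0.00111%, with Mir206 lower and Mir133b not passing. All these sums leave out reads with several alignments. The Mir1a and Mir133a genes of the cardiomyocyte list share windows with other microRNA genes. So do the Mir199 genes of the fibroblast list and Mir486 of the erythroid list. The part of these cell types in the array's differences was not tested.

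Relatives of the same families outside Sfmbt2 had few counts. Of 10 such genes, 1 had counts, Mir466q on chromosome 3 with 1 count and 3 counts. All 10 had unshared windows, but some had few, with 22 of 55 in Mir297-1 and 40 of 100 in Mir467h. These windows were compared among annotated microRNA genes only and can lie outside the mature sequence. The 0 counts thus do not bound the levels of these microRNAs. The miR-466q seed printed above occurs in 30 members, yet its whole sequence occurs in none.

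Other imprinted microRNA genes give a scale for these values. In the Dlk1-Dio3 region, whose microRNAs are expressed from the maternal copy, 37 of 59 genes (62.7%) reached 1 CPM in both libraries, and the region held 0.224% ± 0.0110 of the counts (SD, n = 2). Its leading genes were Mir127 at 873 ± 43.6 CPM, Mir411 at 228 ± 23.0 and Mir541 at 207 ± 44.1. Only 1 of its 59 genes had no unshared window. Of its 28 tested genes 3 were higher and 6 lower in replicate 2, with a median log2 ratio of -0.13.

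The 5 single imprinted genes were led by Mir335, in the paternally expressed gene Mest, at 371 and 524 CPM. It was higher in replicate 2 (log2 ratio 0.57, exact 95% interval 0.47 to 0.67, adjusted p = 7.90e-27). Mir483, of Igf2, had 34.2 and 35.4 CPM and did not pass (log2 ratio 0.13, adjusted p = 0.611, exact binomial test). Of the Gnas locus, Mir298 passed with 6.69 and 14.2 CPM (log2 ratio 1.16, adjusted p = 0.00219, exact binomial test), and Mir296 had 6.45 and 4.17 CPM and did not pass (-0.56, adjusted p = 0.422). Mir675, of the maternally expressed gene H19, had 3 counts and 1 count, below the filter.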

How the data were processed

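Small RNA of heart (size range labelled as below 30, with no unit) was sequenced in 2 libraries. The deposited tables hold raw read counts per microRNA gene, without strand, on the gene's strand and on the opposite strand. Per the deposited description, genes followed GENCODE M21 on mm10; the aligner is not given in the sources used here. Counts on the gene's strand were used. Rows that name no gene were left out of totals: unmapped reads (19.0% and 17.5% of all reads in replicates 1 and 2), multimapping reads (42.4% and 43.2%) and reads at no feature (6.94% and 7.11%).

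CPM used assigned reads. Libraries were compared by an exact binomial test on TMM-scaled totals (edgeR 4.0.16, R 4.3.3; scipy 1.17.1), with Benjamini-Hochberg adjustment at 0.05 over genes kept by filterByExpr (minimum count 10). The test was first run on counts simulated with counting error alone (Poisson draws). This run cannot show how the test behaves when libraries differ by more than counting error. Gene sequences for the 22-base windows were GENCODE M21 transcripts. A genome sequence was not used here, so the planned count of copies over the genome was replaced by the count over annotated microRNA genes. RefSeq's mature sequences matched 0 of 119 members, so none of theirs is printed. Mismatches of CAST reads to mm10 were not tested.

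Members and lists were chosen with earlier results of these data known. Named members were those at 1 CPM in both libraries, those tested, the leading member of each family and the 10 highest by mean CPM. Of other genes, the 3 highest of the Dlk1-Dio3 and the same-family lists and all single imprinted genes were named. Mir292a of the pluripotent list matched no gene. Alternatives covered strand, denominator, detection threshold, filter, scaling (DESeq2 1.42.0), window length and leaving out a library.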

Additional observations from a re-analysis of the deposited data

How the results depend on the processing

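The array's mean share of 0.0887% became 0.118% with reads regardless of strand, 0.0284% of all reads and 0.272% without the 10 most abundant genes of each library. Regardless of strand, 118 of the 119 members kept the same counts, while the totals were lower, at 2906600 (replicate 1) and 2307809 (replicate 2). The 6 detected members became 13 with 1 count in either library. Leaving out 1 library gave shares of 0.0786% to 0.0988%, 6 to 7 detected members and 0% to 0.0304% of reads on the opposite strand. With 2 libraries, leaving out 1 is no check of stability, and the levels of Mir669l (4.78 and 18.8 CPM) and Mir669e (0.717 and 14.9 CPM) rest mostly on replicate 2. For the other alternatives, a share was called unchanged if it moved by less than the SD, and a number of members if it changed by at most 1.5-fold. By these rules 13 alternatives to the main results stayed and 4 moved, all named above. The alternative of members that overlap no gene of the other strand held all 119 members and could not differ. Single members and the array's ratio were judged by SD, exact interval or side of the threshold. Of these, 25 stayed, 5 moved and 1 call was lost, that of Mir467d with DESeq2 size factors. No result reversed. The number of members with no unshared window, 54, was the same at 18 and 20 bases, and when other transcripts were added, an alternative chosen after seeing the data. The count over the genome was not run. No paired analysis was possible because the design holds 1 group. Depth limits the array below about 1 CPM, and 2 libraries of 1 group cannot separate animals from handling.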

Other observations

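Outside the array, sequence shared between microRNA genes also went with low counts, which the counting rule largely sets, since reads with several alignments are left out. Of the 243 other microRNA genes with no unshared 22-base window, 4 had a count, with 127 and 50 counts in all, and 2 reached 1 CPM in both libraries. Of the 1840 other genes with an unshared window, 692 had a count. Within the array, the last stretch from Mir467e to Mir669h holds both members whose windows are all unshared, and neither is among the 6 detected.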
